A study of Mus musculus with 10 samples.

Results

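Small nucleolar RNA (snoRNA) genes were examined in osteoblastic lineage cells, which include the cells that build bone. Members were all genes whose symbol starts with Snord (C/D box) or Snora (H/ACA box) followed by a digit and that had a probe set with exactly 1 annotated symbol. Where a gene had several such probe sets, the one with the highest mean over all 10 arrays was kept. This gave 51 of the 19938 genes tested, of which 31 were C/D box and 20 were H/ACA box genes. The set was chosen by its name and by the difference of Snord38a between the groups, which was already known from these arrays. Its difference is therefore given as a description, as are the differences of the other members in the same comparison.

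The arrays came from 5 BA mice and 5 control mice, with 1 mouse per array. BA mice carried the transgenes Scl-tTA and TRE-BCR/ABL, in which a doxycycline-repressible transactivator under the Scl promoter drives the BCR/ABL oncogene, and had developed a myeloproliferative disease. The Scl promoter is known for its activity in blood stem and progenitor cells. Transgene activity in the sorted cells was not examined here. Control mice were matched for age, and their genotype is not given in the labels. All were of the C57BL/6 strain, all were taken off doxycycline at 5 weeks of age, and bone was collected 5 to 6 weeks after that. RNA of 500 to 2300 cells, released from crushed bone with collagenase and sorted with antibodies to CD51, CD45, Sca-1, CD31 and blood lineage antigens, was amplified and hybridised to Affymetrix mouse Gene ST 1.0 arrays.

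All values are the deposited log2 levels, and all differences are BA minus control on that scale. Among markers of the labelled cell type, 6 of 7 measured osteoblast genes lay above the 75th percentile of all genes by level. The same held for 5 of 6 chondrocyte, 6 of 8 neutrophil, 3 of 10 pan-haematopoietic, 2 of 8 macrophage and 0 of 6 endothelial genes. The mean of the 7 osteoblast genes lay between 8.73 and 9.70 on BA arrays and between 9.28 and 10.1 on control arrays, with a median difference of -0.42. The mean of the 10 pan-haematopoietic markers lay between 6.86 and 9.12 on BA arrays and between 6.23 and 7.39 on control arrays, and the mean of the 8 neutrophil markers between 7.67 and 10.2 on BA and between 6.85 and 8.76 on control arrays. The median difference was 0.66 for the pan-haematopoietic and 0.965 for the neutrophil markers. Of the pan-haematopoietic markers 9 of 10 had a higher mean in BA cells, and BA replicate 5 had the highest mean over them. None of these markers passed an adjusted p of 0.05 by itself (limma). The mean of the 8 macrophage markers was 5.76 to 7.12 on BA and 5.67 to 6.09 on control arrays, with a median difference of 0.36. The mean of the 6 endothelial markers was 4.94 to 5.11 on BA and 4.95 to 5.46 on control arrays. In such bulk RNA, a change in the share of a cell type and a change in RNA per cell cannot be told apart.

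SnoRNAs are short RNAs of the nucleolus that guide chemical marks onto ribosomal RNA. C/D box snoRNAs guide ribose methylation by the enzyme fibrillarin, and H/ACA box snoRNAs guide the conversion of uridine to pseudouridine by dyskerin. A few members of both classes act in the cleavage of the ribosomal RNA precursor instead. Most snoRNAs of mammals are cut from introns of host genes, many of which encode ribosomal proteins, translation factors or nucleolar proteins. The amount of such a snoRNA can thus depart from that of the spliced host RNA. Whether a member's probe set measured the mature snoRNA or host RNA that still held the intron was not examined here.

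A host was looked up for each member as the gene with the shortest span that holds it in RefSeq annotation of GRCm38.p6, as listed without strand. This placed 50 of the 51 members in 40 hosts. The exception was Snord118. In 10 hosts there were 2 members each. RefSeq start-site windows of GRCm38.p6 were found for 30 of the 40 hosts. The windows of 5 hosts that hold such pairs are shown, because the 2 snoRNAs annotated within 1 host are set side by side below. Each runs 5′ to 3′ along the gene, from 80 bases before the annotated start to 20 bases after it. Capitals mark the motif CTTTC or its reverse complement GAAAG within 20 bases of the start; CTTTC resembles the pyrimidine-rich start known from ribosomal protein genes.
Rps3a1 (Snord73a and Snord73b; chr3:86142649-86142748, minus strand): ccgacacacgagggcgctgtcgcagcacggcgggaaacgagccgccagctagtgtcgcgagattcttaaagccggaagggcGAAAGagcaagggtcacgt
Snhg12 (Snora44 and Snora16a; chr4:132308598-132308697, plus strand): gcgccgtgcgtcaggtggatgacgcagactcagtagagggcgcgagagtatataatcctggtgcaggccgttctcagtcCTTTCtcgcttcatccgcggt
Rps3 (Snord15a and Snord15b; chr7:99483690-99483789, minus strand): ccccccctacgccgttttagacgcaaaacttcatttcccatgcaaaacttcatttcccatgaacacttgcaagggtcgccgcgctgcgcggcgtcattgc
Rack1 (Snord95 and Snord96a; chr11:48800280-48800379, plus strand): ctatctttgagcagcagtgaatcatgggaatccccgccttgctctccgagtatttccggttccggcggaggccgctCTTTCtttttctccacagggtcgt
Ncl (Snord82 and Snora75; chr1:86359436-86359535, minus strand): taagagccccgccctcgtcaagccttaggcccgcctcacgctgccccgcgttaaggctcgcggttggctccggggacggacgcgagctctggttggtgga
The motif, searched on both strands, was in 10 of the 32 host windows (31.2%) and in 10.2% of all 32851 windows of the same length. Among the windows shown, that of Snhg12 and that of Rack1 hold it on the strand of the gene, and that of Rps3a1 on the other strand.

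The probe set of Snord38a, a C/D box RNA that guides methylation of the large-subunit ribosomal RNA, gave higher values in BA cells. Its level was 5.44, 6.57, 5.86, 5.83 and 6.22 on BA arrays 1 to 5, against 3.15, 3.55, 4.04, 3.55 and 3.36 on control arrays 1 to 5. The groups did not overlap, and the lowest BA array lay above the highest control array. The mean was 5.98 ± 0.43 in BA cells and 3.53 ± 0.33 in control cells (SD, n = 5 each) (BA minus control 2.45 ± 0.22, SE). This is 5.48-fold on the linear scale. A fit that also held each array's pan-haematopoietic mean gave 2.46, with an adjusted p of 0.0710 (limma). Without BA replicate 5, the array with the highest such mean, the difference was 2.40 and the adjusted p 0.0610 (limma). Leaving out any 1 of the 10 arrays gave differences between 2.31 and 2.59, with adjusted p-values from 0.00456 to 0.0610 (limma). Whether a probe set as dim as this one was above background in control cells could not be judged, since no detection calls were used.

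Snord55, also a C/D box guide RNA, had 7.80, 7.55, 7.55, 7.58 and 7.43 in BA cells and 7.54, 7.61, 7.66, 7.57 and 7.42 in control cells. These values overlapped throughout, and the difference was 0.02 ± 0.09 (SE). Snord55 had the smallest spread of all members, with an SD between arrays of a group of 0.11.

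**Figure D1:**
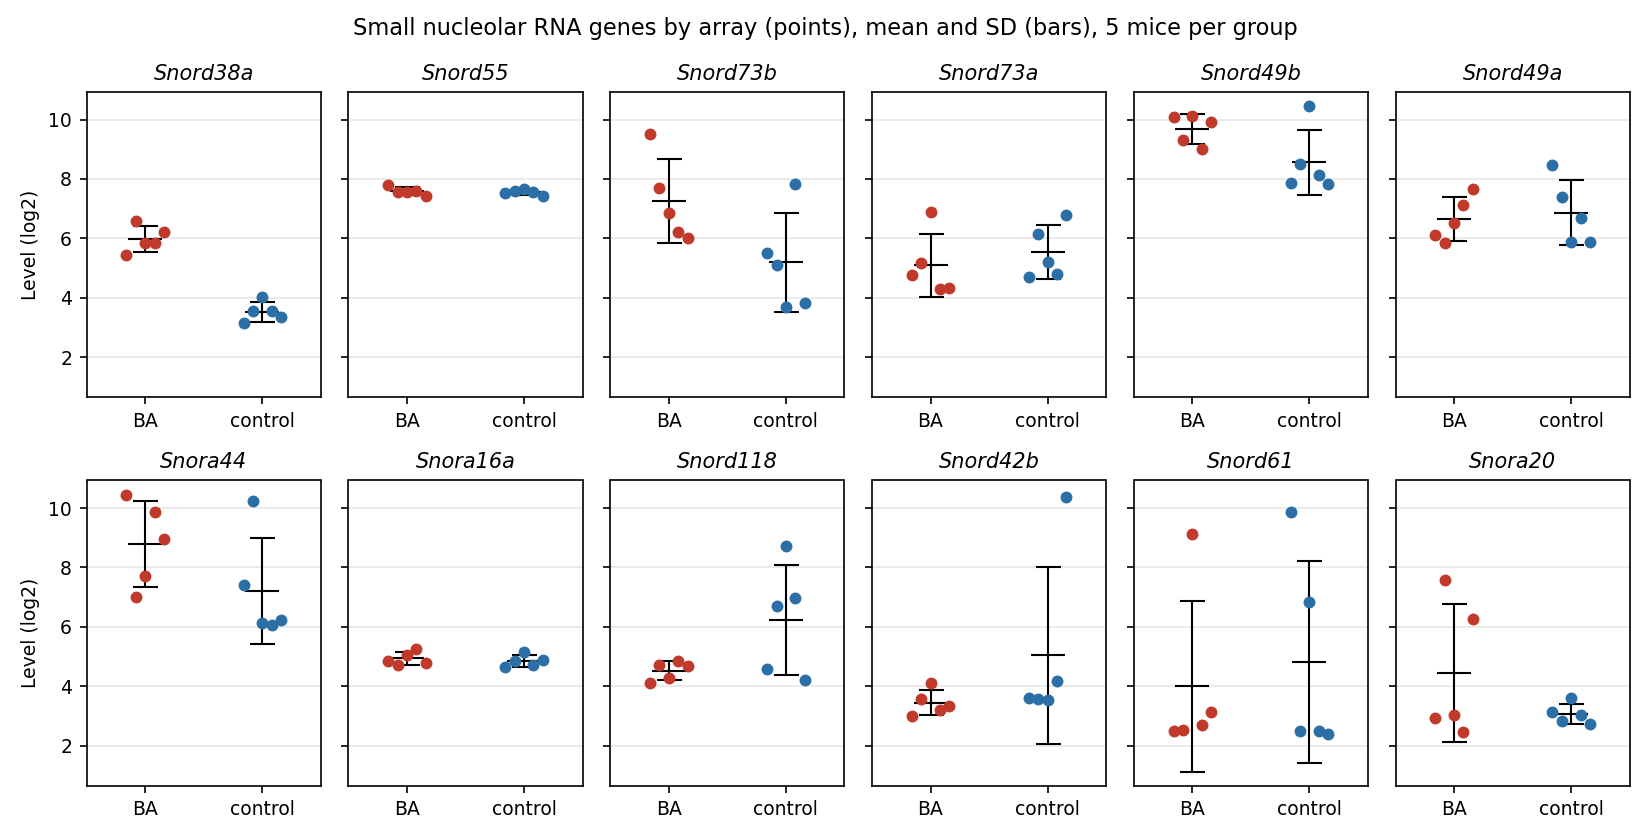
Deposited log2 level (y axis) of 12 snoRNA genes on each array, BA left of control, with the group mean and SD as bars (n = 5 mice per group). For Snord38a the 5 BA arrays lie at 5.44 to 6.57 and the 5 control arrays at 3.15 to 4.04, while Snord55 lies at 7.42 to 7.80 on all 10 arrays, and genes such as Snord61 and Snord42b jump on single arrays of either group.

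Over all members, 1 of 31 C/D box genes (Snord38a) and 0 of 20 H/ACA box genes passed an adjusted p of 0.05 higher in BA cells (limma over all genes), beside 0.00502% of all genes, a count to which Snord38a itself contributed the single call. That call was lost with a plain equal-variance test (adjusted p = 0.151). In limma it was lost with the replicate number as a block (0.148) and with the pan-haematopoietic covariate (0.0710). It was also lost without control replicate 2 (0.0598), control replicate 5 (0.0587), BA replicate 3 (0.0546) or BA replicate 5 (0.0610). In the other direction 0 members passed, beside 0% of all genes. At an unadjusted p under 0.05 there were 3 C/D box genes higher and 3 lower and 0 H/ACA box genes in either direction, beside 4.13% of all genes higher and 5.27% lower. The arrays of the groups did not overlap for 1 member with BA above, beside 0.567% of all genes, and for 0 members with BA below, beside 1.1% (1.67% in either direction). Since Snord38a drew attention to the set, nothing is read from these counts. The member with the next smallest p was Snord15a, at -0.43 ± 0.14 (SE) and an adjusted p of 0.471.

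In size, the members' differences were wide in both directions. The C/D box genes lay between -1.71 and 2.45, with a median of -0.05, 15 above 0 and 16 below. The H/ACA box genes lay between -0.77 and 1.58, with a median of 0.21, 14 above 0 and 6 below. Over all genes the median was -0.06, with 7518 above 0 and 12350 below. A difference of more than 1 in size was seen for 9 of 31 C/D box (29.0%) and 2 of 20 H/ACA box genes, and for 2.20% of all genes. In 41 of the 51 members the difference was smaller than the SD between arrays of a group, and in 25 it was smaller than its own SE. The median of the C/D box genes moved to -0.32 without control replicate 3 and to 0.15 without control replicate 4. That of the H/ACA box genes stayed above 0 without each array in turn (0.09 to 0.26) and with the arrays centred or quantile normalized (0.23 and 0.19). With only genes above the median level, it fell to 0.025, and the median of the C/D box genes rose to 0.19.

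**Figure D2:**
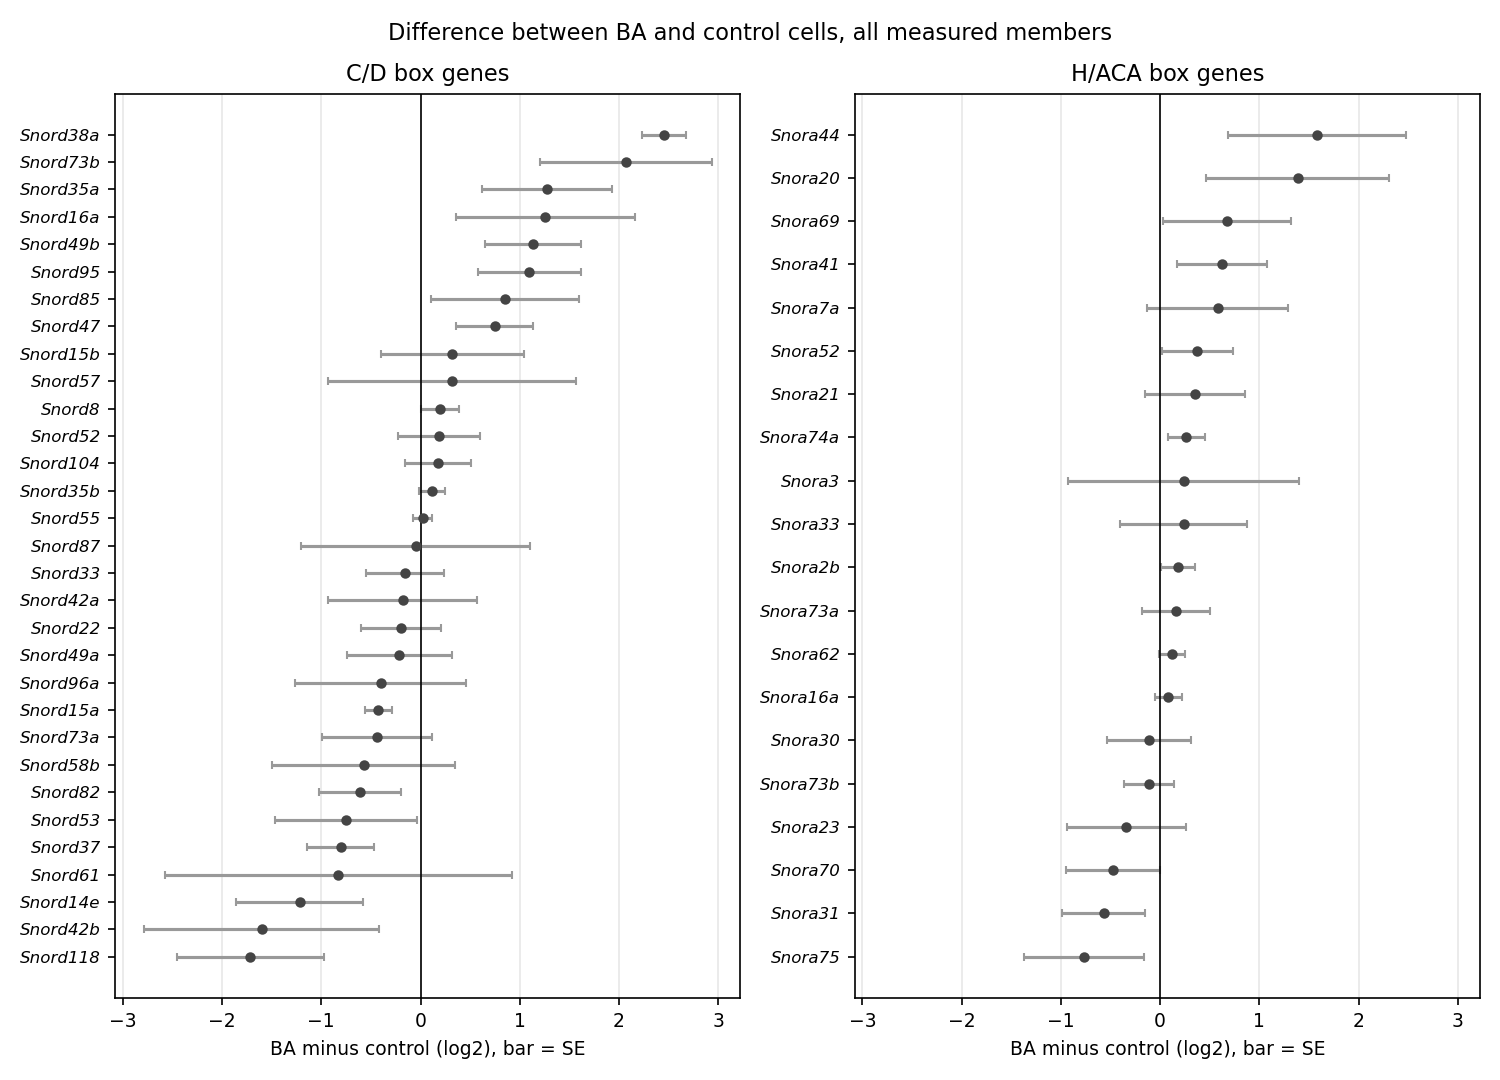
Difference between BA and control cells (x axis, log2) of the 31 C/D box genes (left) and the 20 H/ACA box genes (right), with the SE from limma as bars, ordered by size. Snord38a stands at 2.45 with an SE of 0.22, while the other members with large differences have long bars, such as Snord73b at 2.07 with an SE of 0.87.

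Among the methylation guides with a higher mean in BA cells, Snord73b of the ribosomal protein gene Rps3a1 had 9.52, 7.69, 6.87, 6.21 and 6.00 in BA cells and 5.52, 5.12, 3.68, 7.82 and 3.81 in control cells. The highest control array lay above 4 of the 5 BA arrays, and the difference was 2.07 ± 0.87 (SE). Snord49b had 10.09, 9.32, 10.13, 9.0 and 9.92 in BA cells and 7.85, 8.51, 10.46, 8.14 and 7.83 in control cells (1.13 ± 0.48). There the groups were apart except for control replicate 3, which was above all 5 BA arrays.

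In other guides some of the arrays made up the difference. Snord35a, one of the C/D box RNAs of the Rpl13a introns known for a role in the response to oxidative and lipid stress, had 4.40, 8.24, 5.31, 4.16 and 6.01 in BA cells and 4.07 to 4.76 in control cells (1.28 ± 0.66, SE). It was highest on BA replicates 2 and 5, and BA replicates 1 and 4 lay within the control range. Snord16a of the Rpl4 introns had 4.66, 9.10, 6.86, 6.94 and 4.67 in BA cells and 4.68, 7.50, 4.51, 4.11 and 5.14 in control cells (1.26 ± 0.90). Both groups held low and high arrays. Snord47, which lies in the noncoding host gene Gas5, averaged 9.21 ± 0.49 in BA and 8.47 ± 0.84 in control cells (SD, n = 5 each), and Gas5 itself 12.65 ± 0.08 and 12.71 ± 0.02.

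C/D box genes with a lower mean in BA cells are given next, and none of them passed the test. Snord118, the U8 RNA needed for maturation of the large-subunit RNA, had 4.11, 4.71, 4.27, 4.84 and 4.69 in BA cells and 4.57, 6.70, 8.72, 6.98 and 4.22 in control cells. The 5 BA arrays lay near control replicates 1 and 5, and the other 3 control arrays lay above them. The difference was -1.71 ± 0.74 (SE), with an adjusted p of 0.518 (limma). Its 2 probe sets held identical values on every array. Snord14e, of the U14 family that acts in maturation of the small-subunit RNA and lies in the introns of the chaperone gene Hspa8, had 10.29, 7.03, 9.60, 10.26 and 8.52 in BA cells and 11.11, 11.02, 9.96, 9.08 and 10.62 in control cells (-1.22 ± 0.64). The groups overlapped, and BA replicate 2 was the lowest array. Snord22, which acts in cleavage of the precursor and lies in Snhg1, averaged 7.48 ± 0.40 in BA and 7.67 ± 0.92 in control cells.

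Snord42b and Snord61 show how far a single array could carry a mean. Snord42b of Rpl23a lay between 3.01 and 4.11 on the BA arrays and at 3.59, 3.58, 3.53, 4.17 and 10.36 on control arrays 1 to 5. Its difference of -1.60 ± 1.19 (SE) came from control replicate 5. Snord61, in the X-linked gene Rbmx, stood at 9.11 on BA replicate 3 and between 2.48 and 3.15 on the other BA arrays. In control cells it was 9.85 on replicate 1, 6.85 on replicate 3 and between 2.41 and 2.51 on the others. Snord37, in the elongation factor gene Eef2, had lower values, at 2.67, 3.57, 3.33, 2.92 and 2.62 in BA cells and 3.21, 4.25, 3.23, 3.56 and 4.88 in control cells (-0.80 ± 0.34), with overlapping groups.

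Among the C/D box genes with the highest deposited values, Snord104 averaged 10.92 ± 0.62 in BA and 10.75 ± 0.55 in control cells (SD, n = 5 each). Snord82, in the intron of the nucleolin gene Ncl, averaged 9.26 ± 0.59 in BA and 9.87 ± 0.85 in control cells. Neither difference was larger than the spread between arrays.

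Among the H/ACA box genes, Snora44 of the noncoding host Snhg12 had 10.44, 7.0, 7.71, 9.85 and 8.95 in BA cells and 7.40, 10.23, 6.13, 6.05 and 6.23 in control cells. The difference was 1.58 ± 0.90 (SE), with 3 control arrays below all BA arrays and control replicate 2 above 4 of the 5 BA arrays. Snora20, in the chaperonin gene Tcp1, had 2.92, 7.58, 3.04, 2.45 and 6.26 in BA cells and 2.74 to 3.61 in control cells (1.39 ± 0.92). It stood out on BA replicates 2 and 5, the same arrays as Snord35a. Snora69 in Rpl39 was 7.40 on BA replicate 1 and between 3.62 and 4.89 on the other 9 arrays.

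Snora41 in Eef1b2 averaged 6.23 ± 0.60 in BA and 5.61 ± 0.98 in control cells, and Snora7a in Rpl32 7.29 ± 1.06 and 6.71 ± 1.45 (SD, n = 5 each). With lower means in BA cells, Snora75, the second snoRNA of Ncl, averaged 7.76 ± 1.31 in BA and 8.53 ± 0.77 in control cells (-0.77 ± 0.60, SE). Snora31 in Tpt1 averaged 9.45 ± 0.69 and 10.01 ± 0.79, Snora70 in Rpl10 6.52 ± 0.81 and 6.99 ± 0.88, and Snora23 in Ipo7 8.33 ± 0.51 and 8.67 ± 1.43, BA before control. Snora73a and Snora73b, the RNAs of Snhg3 that act in cleavage for the small subunit, differed by 0.16 ± 0.34 and -0.11 ± 0.25. None of these differences exceeded the SD between arrays of a group.

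In the remaining members, too, the arrays of the groups overlapped. Among C/D box genes, Snord95 of Rack1 differed by 1.10 ± 0.52 (SE), and Snord85 by 0.85 ± 0.75, with 8.77 on BA replicate 1 and 4.38 to 5.98 on the other 9 arrays. Snord15b differed by 0.32 ± 0.72, Snord8 by 0.20 ± 0.19 and Snord52 by 0.19 ± 0.41. On the other side lay Snord53 of Wdr43 at -0.75 ± 0.72, Snord58b of Rpl17 at -0.57 ± 0.92, Snord96a at -0.40 ± 0.86 and Snord87 of Snhg6 at -0.05 ± 1.15. Among H/ACA box genes, Snora52 of Rplp2 differed by 0.38 ± 0.35, Snora21 of Rpl23 by 0.35 ± 0.51, Snora74a of Snhg4 by 0.27 ± 0.19, Snora33 of Rps12 by 0.24 ± 0.64, Snora2b of Kansl2 by 0.18 ± 0.17 and Snora30 of Srcap by -0.11 ± 0.42. Snora30 and Snora21, like Snora3, Snord118 and Snord58b, had 2 probe sets, and these lay within 0.20 of each other on every array. It was not examined whether such probe sets share probes.

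**Figure D3:**
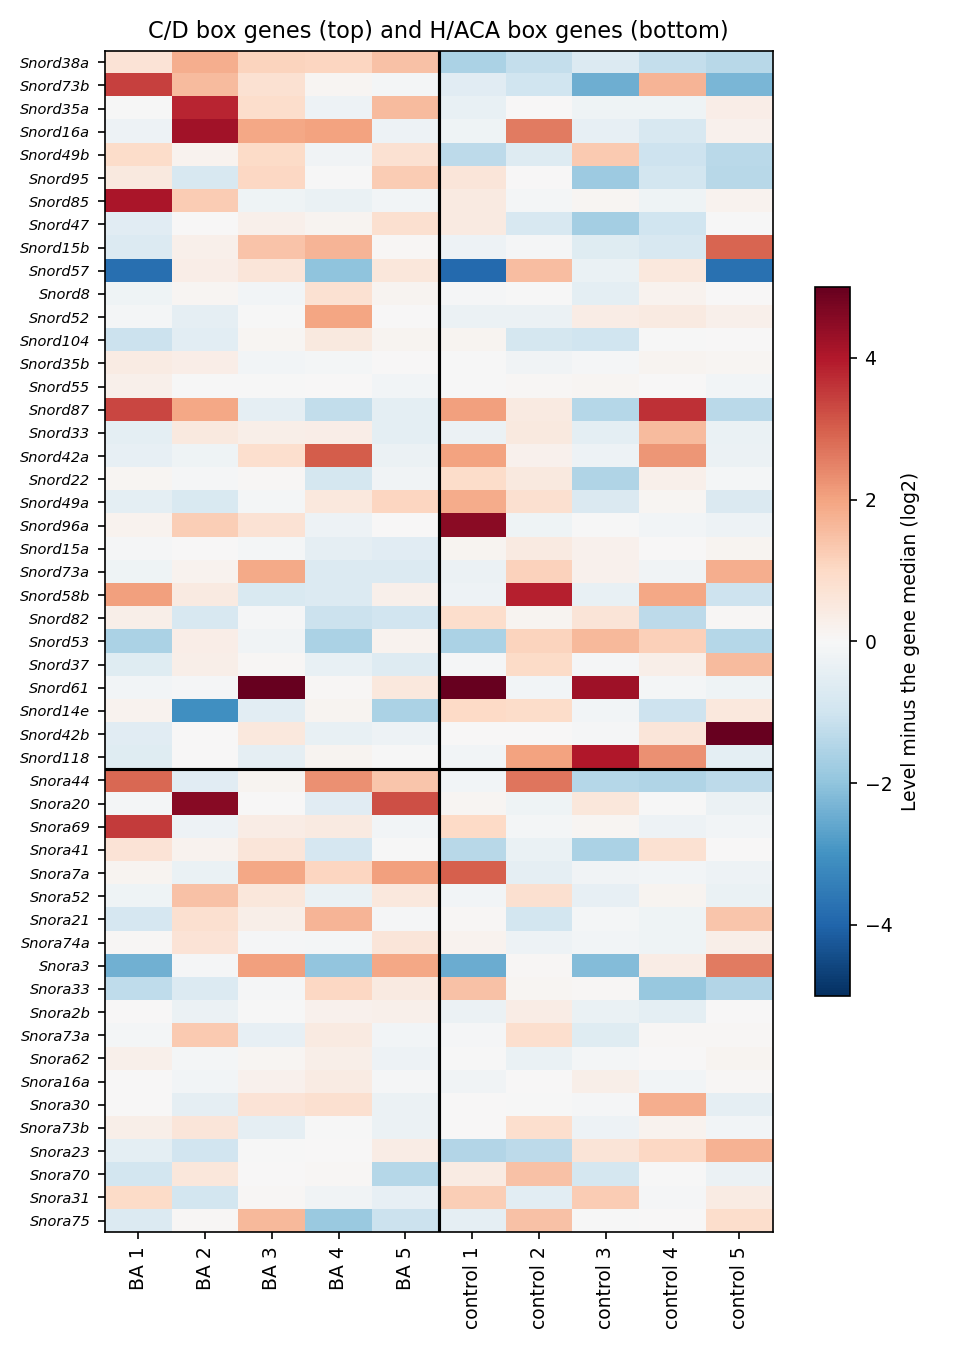
Level of each of the 51 snoRNA genes (rows) on each array (columns, BA left of control), as the difference from the gene's median over the 10 arrays (colour, log2, with the scale ending at 5 in both directions). Snord38a is the 1 row in which all 5 BA arrays are above all 5 control arrays, and most strong colours are single arrays, such as Snord42b on control replicate 5 and Snord85 on BA replicate 1.

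The spread between arrays of a group was the feature most members shared. With 1 mouse per array, differences between mice cannot be told apart from those of sorting, amplification or hybridisation. The SD between arrays of a group had a median of 0.99 for C/D box genes and 0.83 for H/ACA box genes, against 0.19 for their 23 measured hosts, 0.22 for 291 microRNA genes, 0.79 for 12 other small noncoding RNA genes and 0.24 for all genes. It exceeded 1 for 15 C/D box (48.4%) and 8 H/ACA box genes (40.0%), and for 3.12% of all genes. Between the highest and the lowest of the 10 arrays, 12 C/D box (38.7%) and 3 H/ACA box genes (15.0%) spanned more than 4 on the log2 scale, which is 16-fold. Of all genes 1.34% did so, and of microRNA genes 3.09%, while 3 of the 12 other small noncoding RNA genes did. Of those 12 genes, 4 had an SD above 1.

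This spread was seen at low and at high levels. Among the members below the 25th percentile of all genes by level the median SD was 1.15 (n = 17), against 0.20 for all genes there, and above the 75th percentile it was 1.07 (n = 17), against 0.43. Snora3 of Rpl27a, one of the members at high levels, had 5.89, 8.22, 10.35, 6.30 and 10.21 in BA cells and 5.80, 8.35, 6.11, 8.65 and 10.87 in control cells. Both groups ran over the same range, and its second probe set followed the first to within 0.09 on every array. Snord57, in the intron of the snoRNP protein gene Nop56, had 4.40, 8.50, 8.77, 6.15 and 8.73 in BA cells and 4.28, 9.71, 7.85, 8.69 and 4.45 in control cells.

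Snord38a stood among the steadier members. Its SD between arrays of a group was 0.38, and 8 of the 51 members had a smaller one. The smallest were 0.11 for Snord55, 0.20 for Snord35b and for Snora62, and 0.21 for Snora16a and Snord15a. The differences of these 5 were 0.02, 0.11, 0.12, 0.08 and -0.43. Across the members the SD and the length of the RNA in the RefSeq table (45 to 205 bases) had a Spearman correlation of -0.32 (n = 51, all on the same 10 arrays, with hosts shared by some), so longer snoRNAs tended to vary less.

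The class means of the arrays overlapped between the groups. The mean over all 51 members lay between 6.24 and 6.63 on BA arrays and between 6.00 and 6.46 on control arrays, and that over the C/D box genes between 6.07 and 6.55 on BA and between 5.94 and 6.39 on control arrays. The mean over the H/ACA box genes lay between 6.45 and 6.74 on BA and between 6.09 and 6.57 on control arrays, with overlap. An array held the highest value of the 10 for between 2 and 7 members if it was a BA array and for between 4 and 8 members if it was a control array.

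**Figure D4:**
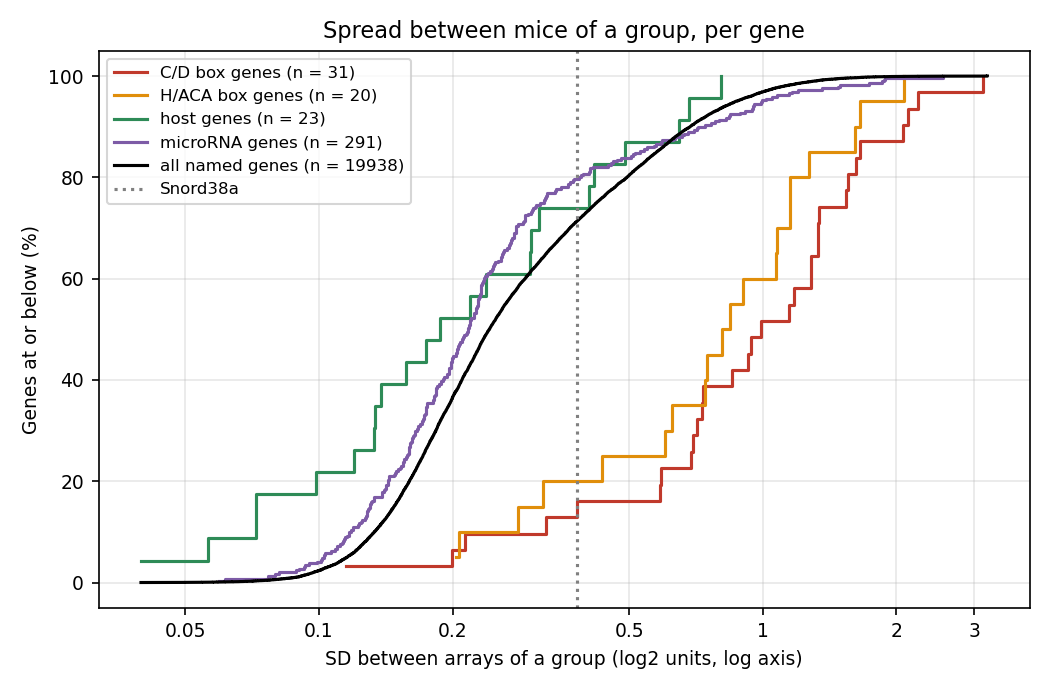
Share of genes (y axis, percent) whose SD between arrays of a group lies at or below a given value (x axis, log2 units on a log axis), for the C/D box, H/ACA box, host, microRNA and all named genes. The curves of both snoRNA classes lie to the right of the others, with medians of 0.99 and 0.83 against 0.24 for all genes, and the dotted line marks Snord38a at 0.38.

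In the 10 hosts with 2 members each, the differences of the members lay between 0.16 and 2.51 apart, with a median of 1.43, and had opposite signs in 6 hosts. Most of these differences were smaller than the spread between arrays, and no test of a pair's gap was made. Of Rps3a1, Snord73b differed by 2.07 and Snord73a by -0.44. Of Snhg12, Snora44 differed by 1.58 and Snora16a by 0.08, and of Rack1, Snord95 differed by 1.10 and Snord96a by -0.40. In 2410006H16Rik, Snord49b stood at 1.13 and Snord49a at -0.21, and in Rpl13a, Snord35a at 1.28 and Snord33 at -0.15. In Rpl23a, Snord42b stood at -1.60 and Snord42a at -0.18. The pair of Ncl was the closest, with -0.61 for Snord82 and -0.77 for Snora75. Partners in these pairs were chosen for their shared host and not for their values.

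The hosts themselves differed little and varied little. A probe set with the host as its one symbol was measured for 27 members in 23 hosts, 21 of them above the 75th percentile of all genes by level. Ribosomal protein genes have many near-identical copies, so these values are uncertain. The host differences ran from -0.06 to 0.66 with a median of 0.18, and 19 of 23 were above 0. In the top 5 percent of genes by level, where most hosts lie, 697 of 996 genes were above 0, with a median of 0.13. After quantile normalization 15 of the 23 hosts were above 0, with a median of 0.10. No host passed an adjusted p of 0.05 (limma), and 4 had an unadjusted p under 0.05, all higher in BA cells, beside 4.13% of all genes.

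In 25 of the 27 pairs of snoRNA and host the snoRNA had the larger SD between arrays. All 27 snoRNAs lay below their host in level, and the hosts had a median level percentile of 99.2. The SDs of a pair were thus compared at unlike levels. Eef2, the translation elongation factor, averaged 11.18 ± 0.09 in BA and 10.78 ± 0.17 in control cells (SD, n = 5 each). Its difference was 0.40 ± 0.10 (SE), with an adjusted p of 0.384 (limma). The snoRNA of Eef2, Snord37, differed by -0.80 at dim values of 2.62 to 4.88. Whether these were above background could not be judged. Rpsa, a small-subunit ribosomal protein, averaged 11.54 ± 0.16 in BA and 11.13 ± 0.18 in control cells (0.41 ± 0.12, adjusted p = 0.452), and its snoRNA Snora62 differed by 0.12. For Eef2 and Rpsa the arrays of the groups did not overlap, which held with BA above for 0.567% of all genes. Rps3a1 differed by 0.12 ± 0.08, Hspa8 by -0.01 ± 0.08, Rpl23a by 0.23 ± 0.13 and Rbmx by 0.66 ± 0.38. Across the 27 pairs the differences of snoRNA and host had a Pearson correlation of 0.05 and a Spearman correlation of 0.04, over 23 hosts measured on the same arrays. The classes differed in sign. For the 14 C/D box pairs the Pearson and Spearman correlations were -0.17 and -0.15, and for the 13 H/ACA box pairs 0.43 and 0.45. None of these correlations was tested.

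**Figure D5:**
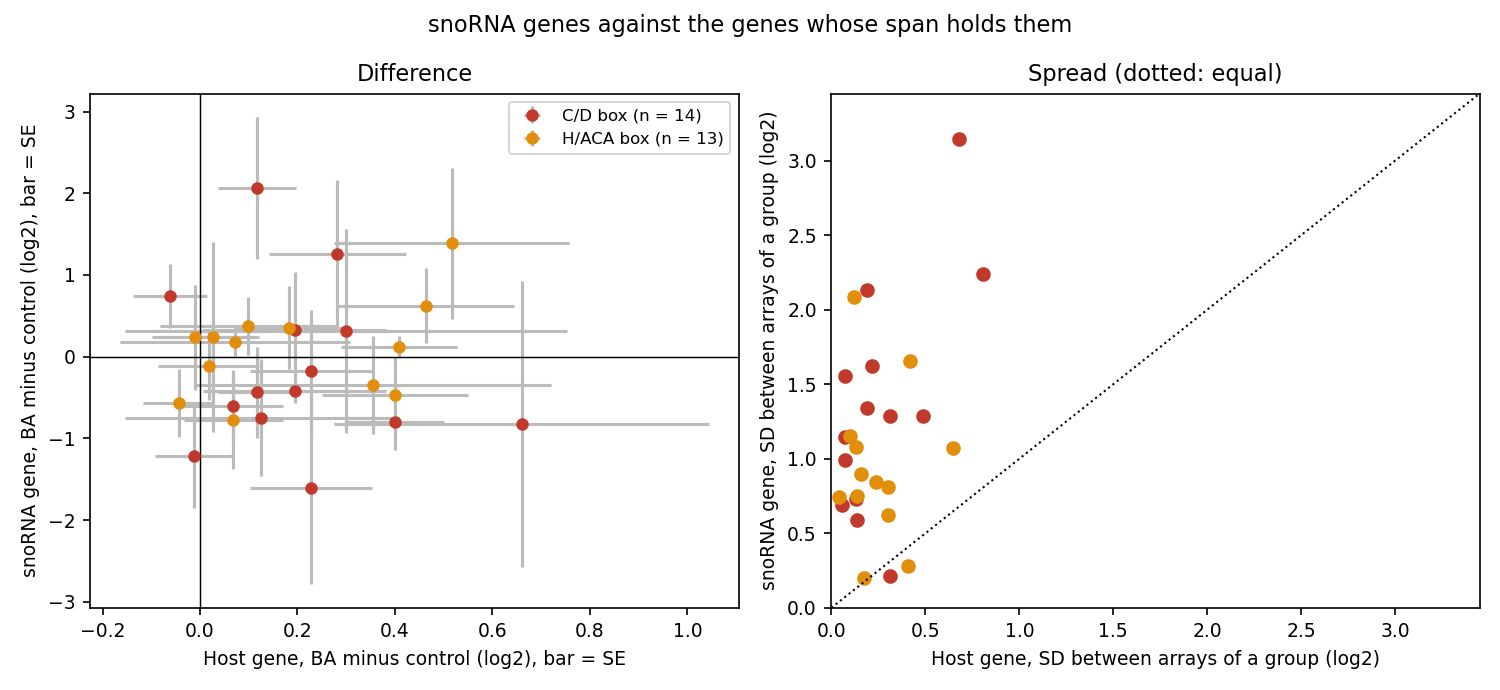
Left, the difference between BA and control cells of 27 snoRNA genes (y axis, log2) against that of their hosts (x axis, log2), with SE bars. Right, the SD between arrays of a group of the same genes, where 25 of 27 points lie above the dotted line of equality.

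The proteins that carry snoRNAs were measured as well. Of the 4 core C/D box proteins none passed an adjusted p of 0.05 (limma), and 0 had an unadjusted p under 0.05. Fbl, fibrillarin, the methyltransferase, had 9.62, 9.56, 9.84, 9.95 and 9.20 in BA cells and 7.11, 9.45, 9.46, 9.62 and 6.87 in control cells (1.13 ± 0.56, SE). Control replicates 1 and 5 were low and the other 3 lay within the BA range. Nop56 had 7.93 on BA replicate 1 and 8.91 to 9.29 on the other BA arrays, and 6.81 on control replicate 5 and 8.63 to 9.27 on the other control arrays. Nop58 differed by 0.18 ± 0.15 and Snu13 by -0.06 ± 0.42. Of the 4 core H/ACA box proteins none passed either, again with 0 at an unadjusted p under 0.05. The pseudouridine synthase Dkc1 differed by 0.21 ± 0.48, and its partners Nhp2, Nop10 and Gar1 by 0.60 ± 0.43, -0.35 ± 0.19 and -0.07 ± 0.19.

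Among 17 genes of snoRNP assembly and nucleolar trafficking, 0 passed an adjusted p of 0.05 (limma). At an unadjusted p under 0.05, 2 were higher and 1 lower, beside 4.13% of all genes higher and 5.27% lower. The median difference of the 17 genes was 0.02. The chaperone ATPase Ruvbl1 differed by 0.68 ± 0.25 (SE), its cofactor Pih1d1 by 0.82 ± 0.30, Wrap53, which brings RNAs to Cajal bodies, by -0.37 ± 0.14, and the H/ACA assembly factor Naf1 by 0.61 ± 0.29. Of 10 measured genes for intron debranching, nonsense-mediated decay and trimming of RNA ends, 0 passed, and their median difference was 0.04. At an unadjusted p under 0.05, 1 of them was higher, beside 4.13% of all genes. That gene was the exosome nuclease Dis3 (0.85 ± 0.33). Smg1, Upf2 and Parn differed by 0.33 ± 0.21, 0.72 ± 0.46 and -0.50 ± 0.36.

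Of a list of 23 noncoding host genes 8 were measured, and 0 passed (limma). At an unadjusted p under 0.05, 1 was higher (4.13% over all genes). This was Rian, the host of a C/D box cluster in an imprinted region, which had 5.14, 5.01, 6.85, 8.37 and 7.68 in BA cells and 4.74 to 5.24 in control cells (1.68 ± 0.60, SE). It was high on BA replicates 3, 4 and 5, and the other BA arrays lay within the control range. Meg3, of the same region, differed by -0.59 ± 0.33, Snhg15 by -0.22 ± 0.19 and Gas5 by -0.06 ± 0.08. A list of 38 protein-coding hosts, which shares genes with the hosts looked up above, had 31 measured genes, of which 24 were above 0, 0 passed and 6 were higher at an unadjusted p under 0.05 (4.13% over all genes), with a median of 0.19. Beside Eef2 and Rpsa, the smallest p-values belonged to Rpl10 (0.40 ± 0.15) and Eef1b2 (0.46 ± 0.18).

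Other short RNAs give a comparison on the same arrays. The 3 measured Scarna genes, guide RNAs of Cajal bodies, included Scarna17, with 9.97, 11.11, 11.45, 11.53 and 10.73 in BA cells and 9.35, 10.73, 5.16, 11.07 and 7.27 in control cells (2.24 ± 1.01, SE). It was low on control replicates 3 and 5. Scarna8 differed by -0.43 ± 0.26 and Scarna13 by 0.07 ± 0.15. Among 12 other small noncoding RNA genes, Rny1, a Y RNA, differed by 1.16 ± 0.50, the minor spliceosome RNA Rnu12 by -1.31 ± 0.67, the telomerase RNA Terc by -0.27 ± 0.15 and the vault RNA Vaultrc5 by -0.96 ± 0.61. None of these 15 genes passed (limma), and 1 had an unadjusted p under 0.05, in the higher direction (4.13% over all genes). Among the 291 microRNA genes 0 passed, and their median difference was -0.10. At an unadjusted p under 0.05, 2 were higher and 19 lower, beside 4.13% of all genes higher and 5.27% lower. Of the microRNA genes, 166 lay below the 25th percentile of all genes by level, where all genes had a median difference of -0.10 too. The smallest p-values of the microRNA genes were those of Mir681, Mir499, Mir93 and Mir210, which differed by -0.26, -0.47, -0.38 and -0.28.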

How the data were processed

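RNA of sorted osteoblastic lineage cells was measured on 10 arrays, 5 BA and 5 control, grouped by sample title. The deposited log2 values were made by the authors with GCRMA, per the submitters' processing notes, with a version not given in the sources used here. That they are on base 2 was taken from their range, 1.21 to 13.7. GCRMA draws dim probe sets towards a floor, which compresses low values, and the precision is limited by having 10 arrays. Genes were named from GEO's platform annotation: 21789 of 35557 probe sets had 1 symbol, 1621 several and 12147 none. BA was set against control by lmFit and eBayes of limma 3.58.1 (R 4.3.3; two-sided, no covariate), with Benjamini-Hochberg adjustment over 19938 genes and a threshold of 0.05, tested on simulated data. All 51 members were tested with no filter on level. Members, lists and the motif were chosen with earlier results of these data known. Named members are Snord38a and Snord55, per class the 5 largest differences in each direction and the 5 highest levels, and members sharing a host. Steady or cleavage-related members (Snord35b, Snora62, Snora73a, Snora73b, Snord22, Snord57) were named after their values were seen, and the rest are given by their differences. Lists give their core genes or the 4 smallest p-values. No set was tested as a whole. Alternatives were a replicate block, other scaling, level filter, eBayes settings, array weights, probe-set rules, a plain equal-variance test, covariates, a looser threshold and leaving out each array. Some host genes are not reported here.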

Additional observations from a re-analysis of the deposited data

Results flagged for a closer look

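Single arrays were flagged where the gap to the nearest array of their group, over the group's range, passed 0.71. This limit is one that chance passes in about 1 of 20 groups. It was passed for 10 of 102 combinations of snoRNA gene and group. The share over all genes was not counted, and hosts and core snoRNP proteins gave 5 of 46. Nothing particular to snoRNA genes is thus read from the count. In 9 of the 10 the array was the highest. In BA cells, Snora69 was 7.40 on replicate 1 (3.64 to 4.34 on the others), Snord61 9.11 on replicate 3 (2.48 to 3.15), Snord52 5.72 on replicate 4 (3.30 to 3.76) and Snord22 6.79 on replicate 4 (7.50 to 7.77), the single low one. In control cells, Snora7a was 9.30 on replicate 1 (5.85 to 6.18), Snord96a 8.66 on replicate 1 (3.89 to 4.11) and Snord49b 10.46 on replicate 3 (7.83 to 8.51). Snora30 was 7.83 on control replicate 4 (5.56 to 6.02), Snord15b 9.96 on control replicate 5 (6.25 to 6.97) and Snord42b 10.36 on control replicate 5 (3.53 to 4.17). Snord38a was not among them.

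Among hosts and core snoRNP proteins the same ratio was passed in 5 of 46 combinations, each with a low array. Nop56 was 7.93 on BA replicate 1 and 6.81 on control replicate 5, Nhp2 6.09 on BA replicate 1 (7.78 to 8.06 on the others), Nop58 9.86 on control replicate 3 (10.48 to 10.62) and Tpt1 12.62 on control replicate 2 (12.65 to 12.66). Tpt1 spanned only 0.12 over all 10 arrays, so its flag came from a narrow range and not from a large gap.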

How the results depend on the processing

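The difference of Snord38a kept its sign in every setting that gave a value (2.31 to 2.59). Its adjusted p, 0.00987 in limma as first run, passed 0.05 with quantile normalization, centring, trend and robust settings, array weights, both other probe-set rules and Xist as a covariate. The call, and with it the count of C/D box genes higher in BA cells, was lost (count 0) with the replicate block (difference 2.45, adjusted p = 0.148), the plain equal-variance test (2.45, 0.151) and the pan-haematopoietic covariate (2.46, 0.0710), and when 1 of BA replicates 3 and 5 and control replicates 2 and 5 was left out (2.40 to 2.48, 0.0546 to 0.0610). Leaving out single arrays gave 0 to 1 C/D box gene, 0 to 12 of all genes higher and 0 to 1 lower; the 12 and the 1 came without BA replicate 4, and 2 higher without control replicate 4 or BA replicate 1. The Xist covariate gave 2 higher. Same-numbered arrays of the groups deviated with correlations of -0.10 to 0.11, so the numbers were not taken as pairs, and the block called 0 genes. Genes above the median level excluded Snord38a by construction: 0 genes were called, and the median difference was 0.19 for C/D box, 0.025 for H/ACA box and -0.002 for all genes. Centring moved the median of all genes to -0.038, and leaving out single arrays moved the medians over -0.32 to 0.15 for C/D box, 0.09 to 0.26 for H/ACA box and -0.0845 to -0.04 for all genes. No list gained a call in any setting. Of 70 other named genes, 55 kept their sign throughout the settings run for them, and 15 changed sign in at least 1 setting, in none past the threshold.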

Other observations

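Beside the members, 41 probe sets carried a snoRNA symbol together with another symbol and were not used above. Of these, 24 belonged to the Snord116 cluster, an imprinted C/D box cluster known for its expression in brain, and their values lay between 2.73 and 3.78 on all arrays, with means of 3.22 in BA and 3.49 in control cells. The probe set of Snord14a and Rps13 had 5.04, 6.67, 6.90, 7.03 and 7.60 in BA cells and 4.92, 5.64, 5.53, 5.22 and 5.51 in control cells, a difference of 1.28. On 4 of 5 BA arrays it was above all control arrays, and it was not tested. The probe sets of Snord14c, Snord14d and Hspa8 differed by -0.58 in both cases, and that of Snord34 and Rpl13a by 0.44. In none of the 41 were the groups fully apart, beside 1.67% of all genes in either direction. Many of the Snord116 probe sets held identical values, so the 41 are not separate measurements and nothing is read from this count.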
